A study of Mus musculus with 6 samples.

Results

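The cytosolic ribosomal protein genes were taken as every gene whose symbol on the array annotation follows the Rpl or Rps naming of subunit proteins, with Rpsa and the stalk genes Rplp0, Rplp1 and Rplp2, and without the Rps6k kinases. This gave 48 genes of 12393 with a symbol of their own, carried by 100 of 22690 probe sets. Each gene was read from the brightest of its probe sets over the 6 arrays. There were 22 genes named for the 40S subunit and 26 for the 60S subunit. A further 27 ribosomal protein genes, Rplp1 among them, occur only on probe sets that list several symbols, mostly of their processed pseudogenes, and are not analysed here. Rps4l is listed by RefSeq as a transcribed pseudogene, and Rpl3l, Rpl7l1, Rpl22l1, Rpl39l and Rps27l are paralogs of a core subunit gene.

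The samples were mouse multiple myeloma cells, labelled as malignant plasma cells of bone marrow, kept for 12 h in serum-free medium. The 3 control samples received no IGF-1, and 3 samples received 100 ng/ml IGF-1 (insulin-like growth factor 1, a growth and survival factor for these cells). No cell line or mouse strain is named in the sources used here. The labels do not say that replicates were separate cultures, so p-values cover only the variation among these 6 arrays, part or all of which may be technical. The comparison asks whether transcripts of the ribosome's own proteins were at another level after culture with the factor.

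Ribosomal proteins and ribosomal RNA form the small (40S) subunit, which decodes mRNA, and the large (60S) subunit, which joins amino acids. Cells make these proteins in matched amounts, and their genes are among the most highly transcribed in dividing and secreting cells. Their mRNAs start with a terminal oligopyrimidine (TOP) tract, a C followed by a run of C and T, through which mTORC1 controls how well they are translated. IGF-1 signalling is known to activate mTORC1. Arrays measure the level of a transcript and not its translation.

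Start regions of 5 members that hold such a tract are shown as examples of this family feature. The windows below are from RefSeq's GRCm38.p6 build and run from 60 bases before the annotated start through the first 15 bases of the transcript, 5′ to 3′ on the gene's strand. Capitals mark the ETS core CTTCCG, the Sp1 core GGGCGG (each on either strand) and a run of at least 5 bases, C then only C or T, that begins within 5 bases of the start. Rps18 and Rpl38 stand for the bright core genes, Rplp2 for the stalk, and Rps27l and Rpl22l1 are paralogs whose values are described further on. The Rps18 window lies at chr17:33955651-33955725 on the minus strand. The others lie on the plus strand, Rpl38 at chr11:114668520-114668594, Rplp2 at chr7:141447591-141447665, Rps27l at chr9:66946026-66946100 and Rpl22l1 at chr3:28805448-28805522.
Rps18: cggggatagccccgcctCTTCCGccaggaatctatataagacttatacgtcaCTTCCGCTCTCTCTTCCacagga
Rpl38: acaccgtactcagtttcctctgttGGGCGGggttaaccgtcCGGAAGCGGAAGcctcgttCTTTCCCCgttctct
Rplp2: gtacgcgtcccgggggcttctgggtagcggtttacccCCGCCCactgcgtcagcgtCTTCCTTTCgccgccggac
Rps27l: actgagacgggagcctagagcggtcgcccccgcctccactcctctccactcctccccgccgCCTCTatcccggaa
Rpl22l1: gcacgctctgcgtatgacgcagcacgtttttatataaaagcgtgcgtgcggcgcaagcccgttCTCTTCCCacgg

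The whole 300-base windows (250 before the start, 50 from it on) were searched for the same motifs. Of the 48 members, 42 matched a window, and Rpl7, Rpl8, Rps4l, Rps14, Rps20 and Rps29 did not. The 39 matched members that were also tested for a difference had 46 windows, since some genes have several starts. The ETS core, the site of factors such as GABP, was in 28 of the 46 windows (60.9%), against 16.9% of all 32851 windows in the table. A pyrimidine tract at the start was found in 20 of 46 (43.5%) against 18.3%. The Sp1 core was in 25 (54.3%) against 35.7%, the YY1 core AAGATGG in 7 (15.2%) against 6.34%, and TATAAA in 6 (13.0%) against 13.6%, each searched on both strands. Rps27l has another listed start, whose window holds no such tract. The Rps18 window holds an ETS core that runs into its tract. A match is a stretch of letters and not a measured site, and the table also covers genes that code for no protein.

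As a check of the samples, all 12 plasma cell markers that were measured, of 15 fixed, exceeded the signal filter described below, with Xbp1 the brightest. Their summed signal was 16096 to 17139 in controls and 15678 to 16198 with IGF-1, and 2 fell. Macrophage and monocyte markers were also present, with a summed signal of 8261 to 10331 in controls and 7507 to 9205 with IGF-1, and 1 of 10 tested rose and 4 fell. The 9 measured neutrophil markers summed to 25113 to 29987 in controls and 23301 to 25932 with IGF-1, and 1 of 9 fell. The brightest of these, S100a9, had a mean signal of 6872, against 4635 for Xbp1. By sign alone, 1 of 9 neutrophil, 1 of 10 macrophage and monocyte and 5 of 12 plasma cell markers were higher with IGF-1. Of 6 measured T and NK cell markers, 5 lay below the filter, as did 2 of 4 erythroid, 3 of 5 stromal and 3 of 4 B cell markers, and of the 6 in these lists above it 1 erythroid marker rose. The part of these other cells in the results below was not tested. In such bulk samples, fewer cells of a type and less RNA per cell cannot be told apart. Over all genes tested, 486 of 6895 rose and 555 fell with IGF-1.

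In the deposited values, ribosomal protein transcripts were very bright and nearly level between the groups. Signals are MAS5 values on a linear scale that the authors had scaled to 1 trimmed mean per array. Of the 48 genes, 44 had a mean signal above 53.6, the median over all probe sets, and were tested with limma on log2(signal + 15.6), a scale that understates changes of dim genes. Only Rps27l passed the threshold (adjusted p under 0.05), so that 1 of 44 rose, 0 fell and 43 did not pass. Over all 6895 genes tested, 7.05% rose and 8.05% fell by the same rule. At an unadjusted p under 0.05, 2 members were higher and 1 was lower. The median log2 difference of the 44, IGF-1 minus control, was 0.047, against -0.0080 over all genes. By sign alone 33 were higher and 11 lower, and 75.0% of the members against 48.7% of all genes had a positive sign. The difference was smaller than 0.15 in either direction for 39 of 44 members (88.6%), against 44.02% of all genes. The 21 tested 40S genes had a median of 0.051 with 15 of 21 positive, and the 23 tested 60S genes a median of 0.043 with 18 of 23 positive. Each of these shares and medians describes the members and carries no test of its own.

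**Figure D1:**
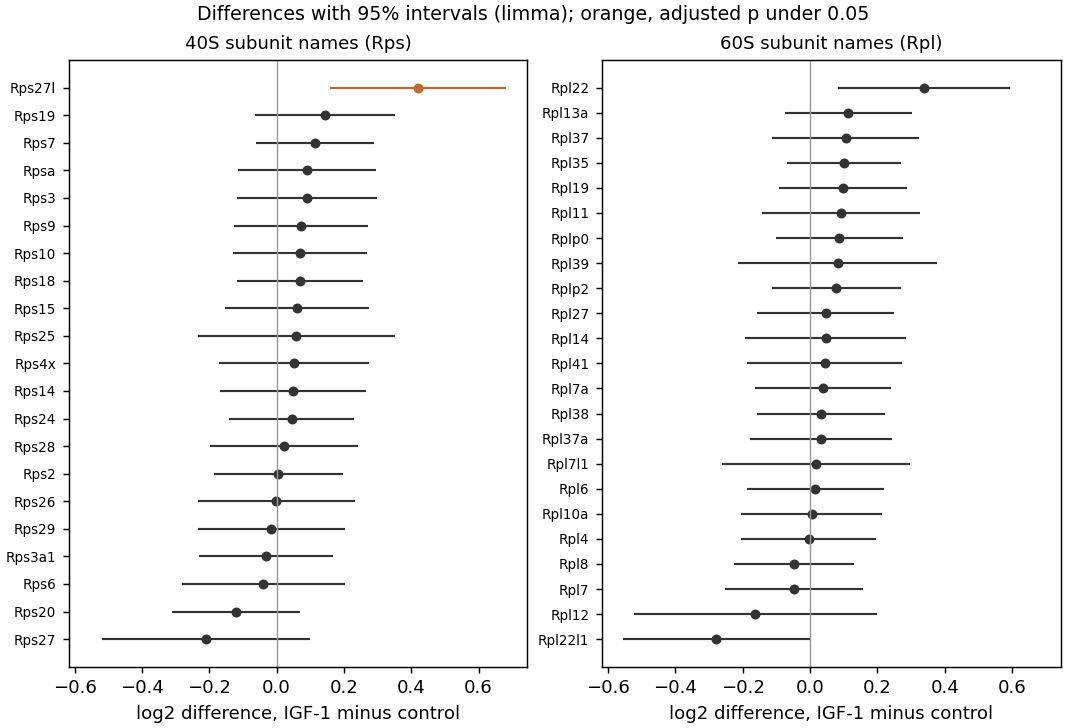
Log2 difference (IGF-1 minus control, x axis) of the 44 tested ribosomal protein genes, 40S names on the left and 60S names on the right. Points are the limma estimates from 3 against 3 arrays and lines their 95% intervals. Rps27l, in orange, is the 1 gene past the threshold, and 39 of the 44 points lie within 0.15 of 0.

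The intervals show how precisely these arrays gave each difference under the deposited scaling. Of the tested members, 34 had a mean signal above 3000, and their standard errors were 0.076 to 0.12. Apart from Rpl22, these 33 genes had differences between -0.12 and 0.14. Over their 95% intervals the lowest bound was -0.31, a 1.24-fold lower level (Rps20), and the highest was 0.35, a 1.28-fold higher level (Rps19). Differences inside a gene's own interval are compatible with its readings from 3 arrays a group. The intervals are not adjusted for the number of probe sets tested and are not a limit of detection.

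Of the stalk proteins, which recruit elongation factors to the large subunit, Rplp0 and Rplp2 were tested and neither passed. Rplp0 read 5906, 6607 and 6103 in the controls and 6174, 6883 and 6714 with IGF-1, and the groups overlapped (log2 difference 0.087 ± 0.085, SE, adjusted p = 0.54). Rplp2 read 7155, 8179 and 7067 in the controls and 8016, 8001 and 7590 with IGF-1 (0.078 ± 0.086, adjusted p = 0.59), with control 2 above all IGF-1 arrays. Under scaling to the hybridization controls, Rplp0 (0.33, adjusted p = 0.0093) and Rplp2 (0.32, adjusted p = 0.0075) passed. Rpl11, which binds MDM2 when ribosome assembly fails, went from 3014 ± 427 to 3195 ± 122 (SD, n = 3), a difference of 0.092 (adjusted p = 0.60). Rpl19 (0.098), Rpl37 (0.11) and Rpl13a (0.11), the last known for silencing inflammatory mRNAs once released from the ribosome, did not pass either. Among the lowest of the large subunit genes, Rpl12, a stalk base protein, had a difference of -0.16 ± 0.16 (adjusted p = 0.55), and Rpl7 and Rpl8 had differences of -0.048 and -0.047.

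In the small subunit, Rps19, the gene most often mutated in Diamond-Blackfan anaemia, read 4830, 5753 and 4829 in the controls and 5790, 5824 and 5371 with IGF-1. The groups overlapped through control 2 and IGF-1 3 (0.14 ± 0.094, adjusted p = 0.34). Rps7 read 5586, 5994 and 5810 in the controls and 5998, 6522 and 6312 with IGF-1. Its groups did not overlap, but by a narrow margin between control 2 and IGF-1 1 (0.11 ± 0.079, adjusted p = 0.38). The groups overlapped on its other probe set, at a mean signal of 3555 (-0.022 ± 0.098, adjusted p = 0.91). Rpsa, also known as a laminin receptor, and Rps3, which forms part of the mRNA entry site, had differences of 0.091 and 0.089 (adjusted p = 0.55 and 0.57). Rps6, the substrate of the S6 kinases downstream of mTORC1, was at 172 ± 15.4 and 167 ± 7.71 (-0.040 ± 0.11, adjusted p = 0.84). That probe set is far dimmer than those of most core genes, though those of Rps27 (mean signal 125) and Rpl14 (140) were dimmer still. Brightness cannot rank the transcripts of different genes. Rps20 had a difference of -0.12 ± 0.086 (adjusted p = 0.39) and Rps3a1 of -0.032 (adjusted p = 0.84).

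Further core genes of both subunits did not pass. Rps18, whose start region is shown above, read 6110, 7077 and 6875 in the controls and 7006, 6963 and 7041 with IGF-1 (0.069 ± 0.084, adjusted p = 0.63). All of its IGF-1 arrays lay within the range of the controls. Rpl38 read 6134, 7142 and 6261 in the controls and 6555, 6795 and 6591 with IGF-1, again inside the range of the controls (0.033 ± 0.086, adjusted p = 0.84). Rpl41, which encodes the shortest ribosomal protein, was the brightest member at 8587 ± 1209 and 8790 ± 170.4 (0.043 ± 0.10). Rpl4 had a difference of -0.0033, Rps2 of 0.0054 and Rps26, a protein at the mRNA exit site, of -0.0014. Rpl14 (133 to 141 in controls, 135 to 154 with IGF-1) and Rps25 (184 to 271, and 231 to 241), the latter needed for initiation at some viral entry sites, were read from dim probe sets and had differences of 0.046 and 0.059.

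In all, 3 of the 44 tested members (Rpl35, Rps7 and Rps27l) had every IGF-1 array above every control array, and 0 had every IGF-1 array below. Over all genes tested these shares were 17.1% and 18.2%. Rpl35 read 5874, 6093 and 5827 in the controls and 6501, 6273 and 6311 with IGF-1, a difference of 0.10 ± 0.076 (adjusted p = 0.41). The groups overlapped on each of its other probe sets. A dimmer probe set of Rpl13a (0.27), Rps10 (0.42) and Rps9 (0.22) each had every IGF-1 array above every control, and none passed. Dimmer probe sets of Rpl37a, Rps24 and Rps9 had every IGF-1 array below and are described further on.

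Rps27l, a paralog of Rps27 that p53 is known to induce, rose 1.34-fold. Its brightest probe set read 1043, 946 and 760 in the controls and 1263, 1264 and 1140 with IGF-1, with control 3 the lowest and all IGF-1 arrays above all controls. The log2 difference was 0.42 ± 0.12 (adjusted p = 0.039). Leaving out control 2, control 3 or a single IGF-1 array ended the call (adjusted p up to 0.12), and it held without control 1 (adjusted p 0.021). It was also lost with no signal filter (0.099), with quantile normalization (0.058) and without an intensity trend in the variance (0.068). The other tested probe sets of the gene did not follow, with differences of 0.10 ± 0.098 (adjusted p = 0.52) and -0.0071 ± 0.096 (adjusted p = 0.97) at mean signals of 650 and 628. The mean over its 3 probe sets had a difference of 0.17 (adjusted p = 0.19). The brightest probe set and that at 650 carry a suffix that marks probes shared with other transcripts. Of the 44 tested members, 31 have a brightest probe set with a suffix of this or another kind. Rps27 itself read 113, 156 and 137 in the controls and 120, 123 and 99.7 with IGF-1, on a dim probe set (-0.21 ± 0.14, adjusted p = 0.36).

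The paralog pair Rpl22 and Rpl22l1 had estimates of opposite sign. Rpl22, a large subunit protein needed for T cell development, read 5106, 4009 and 3942 in the controls and 6052, 5025 and 5378 with IGF-1. The groups overlapped through control 1 alone, which lay above IGF-1 2. The difference was 0.34 ± 0.12 (95% interval 0.082 to 0.60, adjusted p = 0.076), and without control 1 it passed (0.46, adjusted p = 0.016). The dimmer probe set of Rpl22, at a mean signal of 275, had a difference of 0.064 ± 0.13 (adjusted p = 0.79). Rpl22l1, which can take the place of Rpl22 in the ribosome, read 470, 550 and 505 in the controls and 495, 407 and 356 with IGF-1. IGF-1 2 and IGF-1 3 lay below all controls and IGF-1 1 did not. Its difference was -0.28 ± 0.13 (interval -0.56 to -0.0013, adjusted p = 0.16), and it did not pass whichever array was left out (lowest adjusted p 0.057). Under scaling to the hybridization controls, described further on, it was -0.043, and that of Rpl22 was 0.58 (adjusted p = 0.0030). The difference between the paralogs was not tested.

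**Figure D2:**
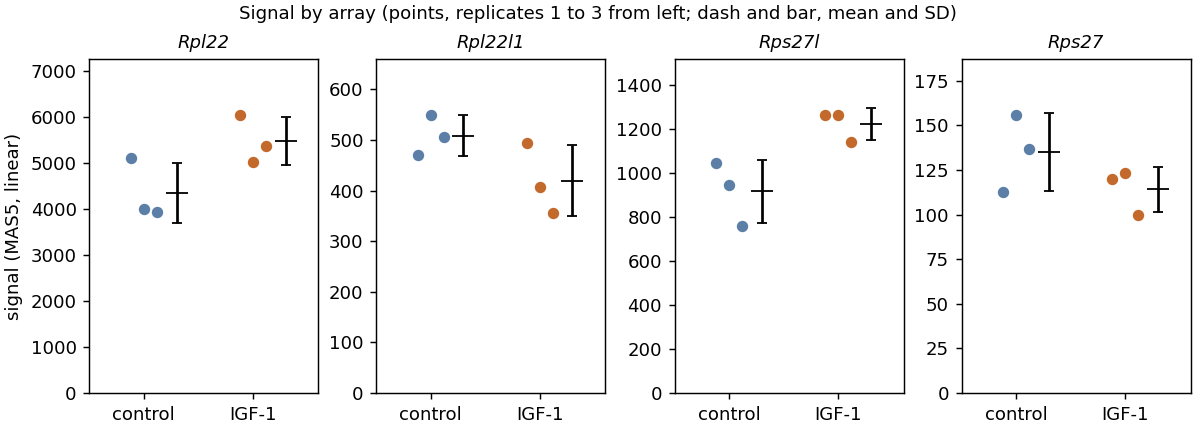
Signal (MAS5, linear, y axis from 0) of Rpl22, Rpl22l1, Rps27l and Rps27 in each array, controls in blue and IGF-1 in orange. Points are replicates 1 to 3 from left, dashes and bars the mean and SD of 3 arrays. The groups are apart for Rps27l alone, and the scales of the panels differ and do not compare genes.

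The other paralogs were dim or lay below the signal filter. Rpl7l1 was at 109 ± 12.3 and 110 ± 8.78 (0.018 ± 0.13, adjusted p = 0.94). The dimmer probe set of Rpl7l1, at a mean signal of 80.2, had a difference of -0.24 ± 0.17 (adjusted p = 0.41). Rpl39l, known from testis, read 1.91 to 17.2 and Rpl3l, known from heart and skeletal muscle, 3.50 to 11.6 over the 6 arrays, below the filter. Rpl39 read 138 to 179 in the controls and 150 to 196 with IGF-1 (0.082 ± 0.13, adjusted p = 0.73). Rps4l read 1.147 to 2.45, among the lowest signals of the array. Rpl27a was the fourth member below the filter, on a probe set that read 44.3, 46.7 and 49.4 in the controls and 29.97, 38.0 and 35.3 with IGF-1, so that its groups did not overlap. As it was not tested, no p is given.

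Under the deposited scaling, the members moved together from array to array more than they moved with IGF-1. Under scaling to the hybridization controls, described further on, their median difference was 0.29, and their readings by array were not compared. Control 2 gave the highest reading of the 6 arrays for 26 of the 44 members (59.1%), against 16.7% of all genes tested. Control 1 gave the lowest for 24 of 44 (54.5%), against 13.4% of all genes. The median deviation from each gene's own mean was -0.12 in control 1, 0.12 in control 2 and -0.038 in control 3 on the log2 scale. In the IGF-1 arrays it was 0.021, 0.044 and 0.0071. The controls thus spanned a wider range than the IGF-1 arrays, and for 25 of 44 members (56.8%) all IGF-1 readings lay within the range of the controls, against 12.6% of all genes. The SD of the log2 signal was larger among controls for 40 of 44 members (90.9%), against 53.3% of all genes. The members' median SD was 0.14 among controls and 0.055 with IGF-1, against 0.14 and 0.13 for all genes. Beside all genes, which are mostly dimmer, the members' median SD was thus smaller with IGF-1 and similar among controls. The SDs were not compared with those of genes of like brightness. The median difference of the members was -0.0012 without control 1 and 0.12 without control 2. Control 2 also had the highest mean of the hybridization controls, 8.43 on the log2 scale. Control 1, where most members were lowest, had the second highest at 8.23, and the other arrays had 7.99 to 8.21.

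**Figure D3:**
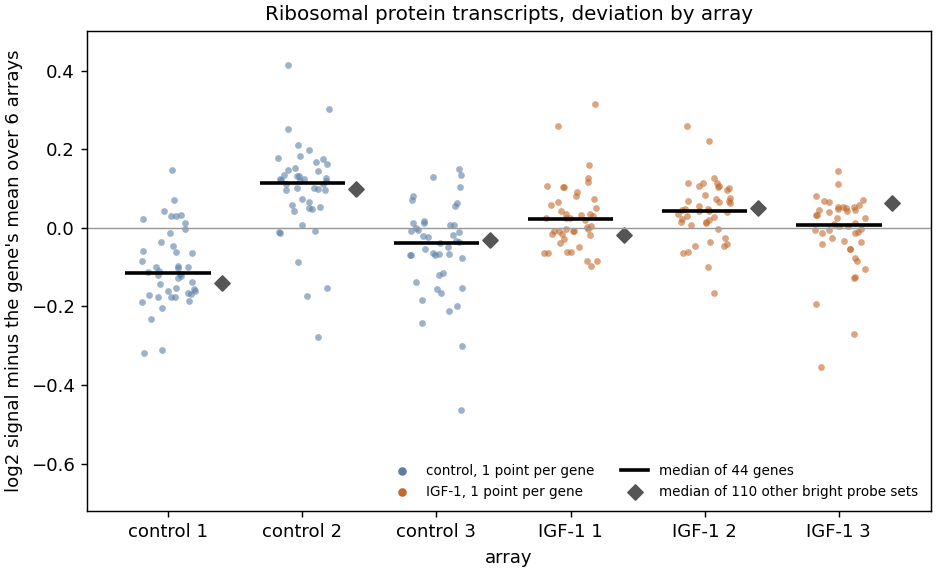
Log2 signal minus the gene's mean over 6 arrays (y axis) for the 44 tested members in each array, with their median as a black line. Diamonds give the median of 110 probe sets of other genes in the brightest 1%. Members are low in control 1 (median -0.12) and high in control 2 (0.12), and the other bright probe sets follow (-0.14 and 0.099).

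Other bright transcripts shared this pattern in part. The brightest 1% of probe sets had mean signals above 3266 and numbered 227, of which 56 were probe sets of members and 61 listed a ribosomal protein gene among several symbols. Of the remaining 110, control 2 was the highest array for 43.6% and control 1 the lowest for 53.6%. Their median deviations were -0.14, 0.099 and -0.030 in the controls and -0.019, 0.051 and 0.064 with IGF-1, and their median difference was 0.057. They were thus low in control 1 and high in control 2 as the members were. In IGF-1 3 they were higher (0.064, against 0.024 for the 33 members in the brightest 1% and 0.0071 for all 44 tested). All IGF-1 readings lay within the range of the controls for 28.2% of the 110, against 60.6% of those 33 members and 56.8% of all 44. Few of the 102 probe sets that list a ribosomal protein gene with other symbols passed the threshold. Of the 91 tested, 1 rose, 1 fell and their median was 0.014, with control 2 the highest for 59.3% and control 1 the lowest for 51.6%. Whether array brightness or the cells set this pattern was not tested.

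Brightness limits how these genes can be read. By mean signal, 33 of the 48 members (68.8%) lay in the brightest 1% of all probe sets. Member readings reached 9791 (Rpl41, control 2), and the highest reading of any probe set on any array was 10029. Arrays respond less than in proportion near the top of their range, and no upper limit of the scanner is given in the sources used here. A division of the 85 tested member probe sets by brightness, chosen after their values were seen, gave the following. The 52 probe sets above 4000 had differences between -0.10 and 0.34 with a median of 0.050, and the 122 other probe sets above 4000 had a median of 0.038. The 15 between 1000 and 4000 had a median of 0.11 and a range of -0.20 to 0.43, against 0.063 for 737 others. The 18 below 1000 had a median of -0.10, against -0.020 for 10369 others. Rps10 is an example of the span within a gene. Its differences were 0.069, 0.10, 0.052 and 0.033 on probe sets above 4000 and 0.42 ± 0.17 (adjusted p = 0.13) on that at 1631. Other genes had the larger difference on the brighter probe set, such as Rpl22 (0.34 at 4919, 0.064 at 275) and Rps27l (0.42 at 1069, -0.0071 at 628). How many genes go each way was not counted.

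Several probe sets of a gene often differed. Of the 100 member probe sets, 85 were tested, and 19 genes had more than 1. All tested probe sets had the same sign in 8 of these genes and mixed signs in 11. Over the 85 probe sets 1 rose and 3 fell, 4.71% in all. Of the 11313 probe sets tested, 6.82% rose and 8.28% fell, 15.1% in all. The 3 that fell were dim probe sets of Rpl37a, Rps24 and Rps9, genes whose brightest probe sets did not pass. They are named after their values were seen.

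The dimmest Rpl37a probe set, at a mean signal of 205, read 242, 382 and 271 in the controls and 144, 101 and 92.8 with IGF-1, with every IGF-1 array well below every control. It fell 2.44-fold (-1.29 ± 0.18, adjusted p = 0.0021) and passed whichever array was left out (highest adjusted p 0.012). The other Rpl37a probe sets, at mean signals of 6255 and 5579, had differences of 0.032 ± 0.095 and -0.087 ± 0.096. The probe set that fell and that at 5579 carry the suffix that marks probes shared with other transcripts. The Rps24 probe set that fell, at a mean signal of 145, read 190, 160 and 176 in the controls and 127, 119 and 94.7 with IGF-1 (-0.57 ± 0.13, adjusted p = 0.017). It did not pass without IGF-1 3 (0.058), with no signal filter (0.051) or under scaling to the hybridization controls (-0.35, adjusted p = 0.12). The 4 brighter Rps24 probe sets had differences of 0.045 to 0.43, none past the threshold. The dimmest Rps9 probe set, at a mean signal of 63.5, read 75.4, 76.9 and 97.1 in the controls and 33.7, 51.3 and 46.6 with IGF-1 (-0.74 ± 0.17, adjusted p = 0.017). It did not pass without control 3 (0.063) or with no signal filter (0.059). The other Rps9 probe sets had differences of 0.073 and 0.22. Which transcripts these dim probe sets detect is not given in the sources used here.

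**Figure D4:**
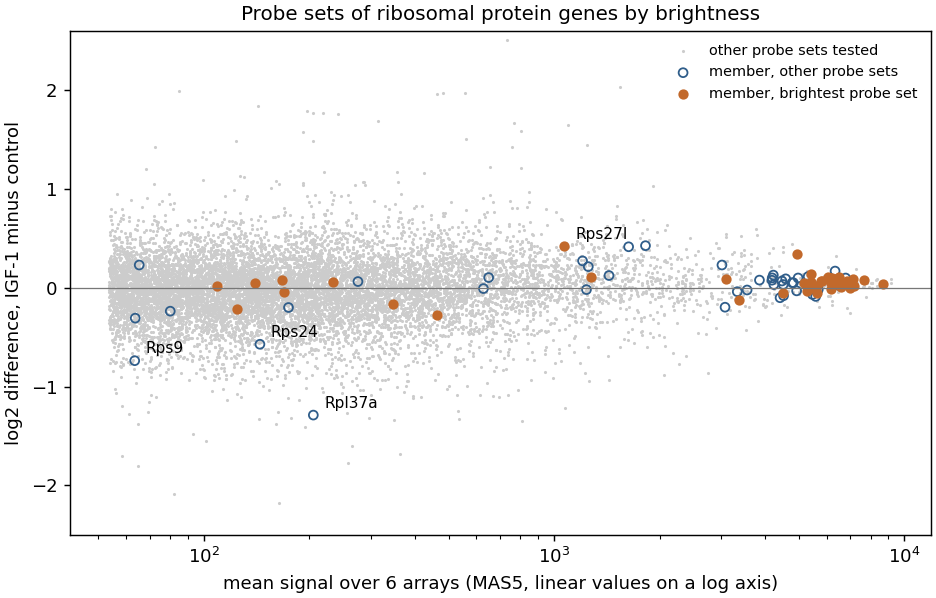
Log2 difference (IGF-1 minus control, y axis) against mean signal over 6 arrays (log x axis) for the 11313 probe sets tested. Filled orange points are the brightest probe sets of members, open circles their other probe sets and grey points all other probe sets. Most members sit at the bright end near 0, and the 4 named probe sets are those past the threshold, Rps27l upward and the dim ones of Rpl37a, Rps24 and Rps9 downward.

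Every difference rests on the authors' scaling of each array to 1 trimmed mean. The 11 probe sets of spiked hybridization controls were lower with IGF-1 by a mean of -0.24 on the log2 scale. Scaling the arrays to them moved the median of all genes from -0.0080 to 0.21, and that of the ribosomal protein genes from 0.047 to 0.29. Under that scaling 29 of 44 members rose (65.9%) and 0 fell, against 19.8% and 2.48% of all genes (1368 rose and 171 fell). Relative to the median of all genes, the members' median was thus 0.055 higher under the deposited scaling and 0.074 higher under the other. With quantile normalization the members' median was 0.015 and that of all genes 0.014, and 0 members rose or fell. That method gives each array the same set of values. Of the 227 probe sets in the brightest 1%, 56 were of members and 61 listed a ribosomal protein gene among several symbols. A shift shared by these is thus largely removed by construction, so no conclusion is drawn from the loss of the excess there. Whether the spikes or the total signal give the truer scale was not tested.

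Genes that work with the ribosome were read from 3 lists, against 7.05% of all genes that rose and 8.05% that fell. The first list held 24 symbols outside the naming rule, of genes whose mRNAs are known to carry a TOP tract. Rack1 was listed also under its former symbol Gnb2l1. Of these symbols 20 were tested, of which 1 rose, 0 fell and 19 did not pass, with a median of 0.037. That is 5% risen, near the share of all genes. The 1 was Vim, an intermediate filament gene (3599 ± 471 to 4585 ± 223, 0.36 ± 0.11, adjusted p = 0.046), whose call held without control 2 and ended when another array was left out (adjusted p up to 0.13). It did not pass with no signal filter. Btf3 (0.21), Nap1l1 (0.20) and Eif3l (-0.17) came next by p and did not pass. Fau, which encodes a ribosomal protein of the small subunit fused to a ubiquitin-like protein, was at 5825 ± 468 and 6158 ± 180.1 (0.083), and the elongation factor gene Eef2 at 5229 ± 480 and 5701 ± 354 (0.13). Eef1a1 (0.013), Tpt1 (0.054) and Npm1 (-0.15) did not pass either.

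Of 46 tested factors that make ribosomal RNA or assemble subunits, 1 rose (2.17%, against 7.05% of all genes), 2 fell (4.35%, against 8.05%) and 43 did not pass, with a median of -0.058 that became 0.16 under scaling to the hybridization controls. Tcof1, a nucleolar protein that supports rRNA transcription, read 169, 169 and 170 in the controls and 323, 270 and 255 with IGF-1 (0.68 ± 0.11, adjusted p = 0.0040). It passed whichever array was left out (highest adjusted p 0.019). Sbds, which releases Eif6 from new large subunits, fell by 0.35 (adjusted p = 0.024), and Nmd3, the export adaptor of the large subunit, fell by 0.44 (adjusted p = 0.033). Sbds held its call without control 1 alone, and Nmd3 without control 2 or IGF-1 3 alone (highest adjusted p 0.075 and 0.12), and neither passed under the hybridization scaling, nor Nmd3 with no signal filter. Gar1 was at 275 ± 25.2 and 212 ± 20.7 (adjusted p = 0.060). Of 30 tested initiation, termination and regulatory factors, 2 rose, 0 fell and 28 did not pass, with a median of 0.063. The 6.67% that rose is near the 7.05% of all genes. Eif3b, a core subunit of initiation factor eIF3, rose from 269 ± 60.3 to 397 ± 52.7 (0.55 ± 0.16, adjusted p = 0.042), and Eif1ax, which helps scanning for the start codon, from 426 ± 61.5 to 580 ± 43.4 (0.44 ± 0.12, adjusted p = 0.031). Eif3b kept its call without control 1 alone and Eif1ax without control 1 or IGF-1 1 alone (highest adjusted p 0.14 and 0.11), and neither passed with no signal filter. Eif3c (0.28) and Eif4h (-0.36) had the next smallest p and did not pass.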

How the data were processed

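Total RNA of 6 samples was hybridized to Affymetrix arrays, 1 array per sample. The authors deposited MAS5 signal, a linear intensity per probe set, made with GCOS and MAS5 per the submitters' processing notes. The sources used here give no version, scaling target or detection call. The trimmed mean was 150.1 on every array (2% trimmed at each end), and array medians were 49.96 to 55.4. No array repeated another. Probe sets were named from GEO's platform annotation, and those with several symbols named no gene. Before testing, 15.6 (the 25th percentile) was added to each signal and log2 taken, for the 11313 probe sets above the median mean signal. Tests used limma 3.58.1 under R 4.3.3 with the variance allowed to follow intensity (eBayes, trend), 3 against 3 arrays, with Benjamini-Hochberg adjustment over all of them. Each gene was its brightest probe set, and scripts were tested on simulated data. The number of arrays limits the precision. Start regions are from RefSeq's GRCm38.p6 table.

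Members and lists were chosen with earlier results of these data known. Named genes are those past the threshold, the 8 members highest and the 8 lowest by difference, members with a stated role or a paralog, and the 4 smallest p of each list. Other names (Rps10, Rps18, Rpl38, Rpl41, Rpl4, Rps2, Rps26, Rpl14, Rps25, Rpl27a, Fau, Eef2, Eef1a1, Tpt1, Npm1) were chosen after their values were seen. Alternatives covered the pseudocount, filter, scaling, variance model, probe set choice, replicate block and left-out arrays.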

Additional observations from a re-analysis of the deposited data

How the results depend on the processing

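The count of ribosomal protein genes that rose was 1. It was 0 with no signal filter, quantile normalization, no intensity trend, a gene's probe sets averaged or the brightest probe set without a suffix, which left 17 genes. It was 2 with the replicate number as a block, where Rpl22 joined (adjusted p = 0.031), and 29 under scaling to hybridization controls, where the median was 0.29. Left-out arrays gave 0 to 2, with a median of -0.0012 to 0.12. The count that fell was 0, also whichever array was left out, and 1 with the mean of probe sets, 2 without a suffix and 1 without the brightest 1% of probe sets. By construction those choices read Rpl37a at -0.45 (mean) or -1.29 (without the brightest), and Rps24 at -0.57 and Rps9 at -0.74 (without a suffix). Of the other TOP genes, 1 passed, with 0 under no filter or the block, 8 under hybridization scaling and 0 to 1 with left-out arrays. Of the biogenesis genes 3 passed, with 5 under the block and 1 to 3 with left-out arrays. Of the translation factors 2 passed, with 0 under no filter, 7 under hybridization scaling and 0 to 2 with left-out arrays. The cause was not tested. Control and IGF-1 arrays of the same number had correlated deviations of 0.12, -0.033 and 0.13, against -0.15 to 0.029 for other pairs, and control 2 correlated best with IGF-1 3, so the numbers were not taken to pair the samples. Alternatives for the dim probe sets were chosen after seeing the data. Saturation of the brightest probe sets and probes shared with pseudogenes limit what small differences can show.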
